A study of Oryctolagus cuniculus with 6 samples.

Results

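PPAR signaling genes were followed in RNA of rabbit (Oryctolagus cuniculus) trachea collected on day 14. The genes are the 8 Ensembl rabbit identifiers that the authors' deposited enrichment table lists under PPAR signaling pathway, out of 16815 in the count table. None of the 8 is also listed under glutathione metabolism, so none was left out. The authors listed the term after comparing the same libraries, so the difference between the groups is given here as a description and supports nothing. The blank group (3 libraries) is labelled wild type with epithelial deficiency and names no further agent. The hydrogel group (3 libraries) is labelled wild type with epithelial injury plus LA@PA-TA@C, the hydrogel of the study. The sources used here do not state whether the deficiency and the injury are the same operation, so a hydrogel-over-blank fold compares the 2 groups as labelled, and the hydrogel and any difference in the operation cannot be told apart. No uninjured trachea is among these 6 libraries, so the level without either is not analysed here. The sources used here do not state strain, age, sex or batch. Per the design text, the replicates are biological, and the labels do not name the animals. Values are listed in the order of replicates 1, 2 and 3.

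Peroxisome proliferator-activated receptors (PPARs) are nuclear receptors that bind fatty acids and their derivatives. They pair with a retinoid X receptor on DNA and raise the transcription of genes for fatty acid uptake, binding, oxidation and storage. In the airway, PPAR gamma is known from epithelial cells and macrophages, where its ligands dampen inflammatory gene expression. The annotated pathway holds the receptors together with their targets, and being listed under it does not say that a gene is a receptor or that a receptor is active. None of the identifiers could be paired with a symbol, so the role of each gene within the pathway is not given here, and the tissue label could not be checked against marker genes.

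The authors' deposited enrichment table sets the 8 genes against 47 genes of the pathway in its background, which leaves 39 pathway genes unlisted and not identified here. The table drew them from a cluster with 176 annotated genes and a background of 3967, with an adjusted p of 0.0295 in the authors' deposited table. Among the 14 terms of that table the highest adjusted p was 0.0297 and the next below that of PPAR signaling was 0.0235, so the term stood near the end of what was listed. Within its cluster of 6 terms it ranked 6 by that value. The authors' deposited differential expression table has no gene with an absolute log2 fold change under 2.00, and it holds 6 of the 8 genes. The gene nearest above that limit was ENSOCUG00000008236, at 2.09 in the authors' deposited table. The other 2 genes, ENSOCUG00000013194 and ENSOCUG00000009353, are listed under the pathway but not in that table, and had log2 fold changes of 1.16 and 1.41 in the edgeR fit made here.

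Few of the genes had another listing in the authors' deposited tables. ENSOCUG00000004155 and ENSOCUG00000012197 are also listed under oxidation-reduction process, and ENSOCUG00000013194 is also listed under Huntington's disease. The other 5 appear under PPAR signaling alone.

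Library totals ranged from 16827419 to 23390531 counts and overlapped between the groups. All 8 genes passed the filter on low counts, which kept 13598 genes. Levels are given as CPM, counts scaled to the total of their library. CPM is not divided by gene length, so the 8 genes are not ranked against each other by level here. In whole tissue, fewer cells that express a gene and less of its RNA per cell cannot be told apart.

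In each of the 8 genes every hydrogel library lay above every blank library, and 18.7% of all tested genes had this order. The genes were chosen for a difference between these groups, so nothing is read from this order. The geometric mean over the 8 genes was 19.3, 12.0 and 6.82 CPM in the blank libraries, and 97.3, 86.6 and 94.8 CPM in the hydrogel libraries. The group means were 12.7 ± 6.29 and 92.9 ± 5.61 CPM (SD, n = 3). The blank libraries spanned a 2.83-fold range and the hydrogel libraries a 1.12-fold range. Over the 8 genes the median log2 fold change of hydrogel over blank was 2.77, with single genes from 1.16 to 4.13, and over all tested genes the median was -0.03.

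**Figure D1:**
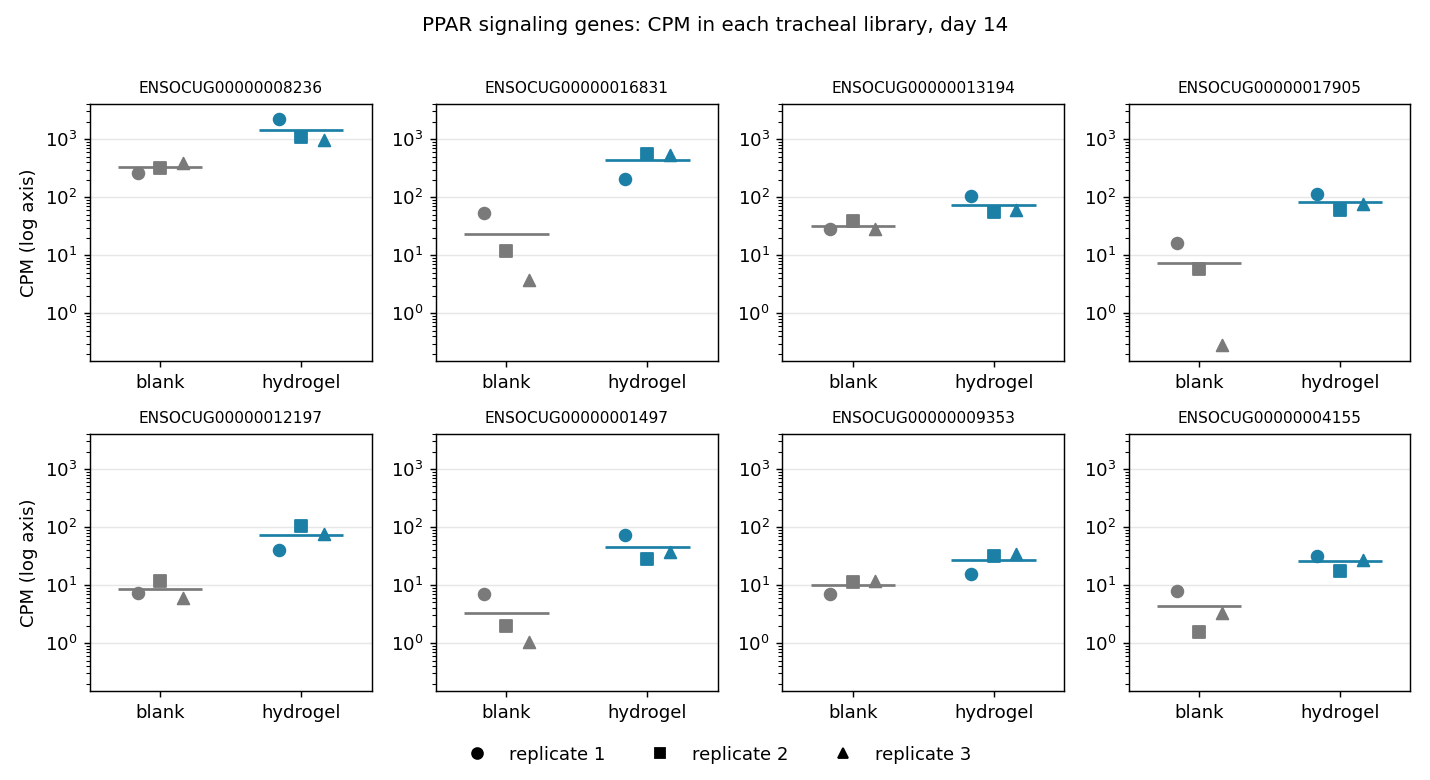
CPM of the 8 PPAR signaling genes on a log axis, with 1 panel per gene, 1 point per library (marker shape gives the replicate) and a line at the mean of the 3 libraries of a group. The hydrogel points lie above the blank points in all 8 panels, and the blank points spread widest for ENSOCUG00000017905, from 0.289 to 16.0 CPM.

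The genes differed in how steady they were among the blank libraries. After the values were seen, they were placed in 2 sets of 4: in the first set the highest blank library was at most 1.97 times the lowest, and in the second it was at least 5.05 times the lowest. The 4 steadier genes come first.

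ENSOCUG00000008236 gave most of the counts of the 8 genes. It was at 261, 323 and 393 CPM in the blank libraries and at 2253, 1112 and 971 CPM in the hydrogel libraries. The groups did not overlap, and the lowest hydrogel library was 2.47 times the highest blank library. Hydrogel replicate 1 stood apart from the other 2 hydrogel libraries, while the blank libraries lay within a 1.51-fold range. The blank mean was 325 ± 66.1 CPM and the hydrogel mean 1445 ± 703 CPM (SD, n = 3). The log2 fold change was 2.09 with a standard error of 0.36, and 1.63 without hydrogel replicate 1. By counts it ranked 323 to 548 among all genes of a blank library and 35 to 79 among those of a hydrogel library. Counts are not divided by gene length, so these ranks compare the gene between libraries and not its level with that of other genes. Of the counts of the 8 genes it held 67.2%, 79.4% and 87.8% in the blank libraries, and 79.4%, 57.0% and 53.1% in the hydrogel libraries.

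ENSOCUG00000012197, which is also listed under oxidation-reduction process, was at 7.35, 12.0 and 6.07 CPM in the blank replicates and at 40.7, 102 and 75.3 CPM in the hydrogel replicates. The groups did not overlap, and here hydrogel replicate 1 was the lowest of its group. Its mean went from 8.46 ± 3.09 to 72.7 ± 30.8 CPM (SD, n = 3). The log2 fold change of 3.08 (standard error 0.40) was the largest among the steadier genes. Without hydrogel replicate 1 it was 3.38.

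ENSOCUG00000013194, which is also listed under Huntington's disease, was at 28.8, 39.7 and 28.3 CPM in blank and at 105, 55.25 and 61.3 CPM in hydrogel. The groups came close: the lowest hydrogel library, replicate 2, was 1.39 times blank replicate 2. The means were 32.3 ± 6.41 and 74.0 ± 27.4 CPM (SD, n = 3), and the log2 fold change of 1.16 (standard error 0.28) was the smallest of the 8. Without hydrogel replicate 1 that log2 fold change was 0.83.

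ENSOCUG00000009353 was at 7.10, 11.1 and 11.7 CPM in blank and at 15.4, 31.7 and 34.1 CPM in hydrogel. Hydrogel replicate 1 lay only 1.32 times above blank replicate 3, the narrowest gap among the 8 genes, and the other 2 hydrogel libraries were close to each other. The means were 9.96 ± 2.50 and 27.0 ± 10.1 CPM (SD, n = 3), with a log2 fold change of 1.41 (standard error 0.40). Without hydrogel replicate 1 that log2 fold change was 1.69.

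The second set was uneven among the blank libraries, and in all 4 of its genes blank replicate 1 was the highest of the blank group. Over all tested genes blank replicate 1 was the highest of its group in 24.9% and the lowest in 35.5%. ENSOCUG00000016831 was at 53.1, 11.8 and 3.70 CPM in the blank libraries and at 204, 547 and 544 CPM in the hydrogel libraries. The blank libraries spanned a 14.3-fold range, and still the lowest hydrogel library, replicate 1, was 3.84 times the highest blank library. The means were 22.9 ± 26.5 and 432 ± 197 CPM (SD, n = 3). The log2 fold change of 4.13 was the largest of the 8, with a standard error of 1.00, and without blank replicate 1 it was 5.87. It was 3.77 without blank replicate 2 and 3.63 without blank replicate 3.

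ENSOCUG00000017905 was at 16.0, 5.88 and 0.289 CPM in blank and at 116, 59.1 and 77.0 CPM in hydrogel. The value of blank replicate 3 rests on 5 counts (exact 95% Poisson interval 0.0939 to 0.675 CPM, counting error only), against 375 counts in blank replicate 1. The blank libraries therefore spanned a 55.4-fold range, while the hydrogel libraries stayed within 1.96-fold. The means were 7.40 ± 7.98 and 83.9 ± 29.0 CPM (SD, n = 3). The log2 fold change was 3.41 with a standard error of 1.07, and 4.86 without blank replicate 1. It was 3.19 without blank replicate 2 and 2.85 without blank replicate 3.

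ENSOCUG00000001497 was at 6.93, 1.94 and 1.04 CPM in blank and at 71.4, 27.8 and 36.8 CPM in hydrogel. Replicate 1 was the highest library in both groups, and the lowest hydrogel library was 4.01 times the highest blank library, the widest gap of the 8 genes. The means were 3.30 ± 3.17 and 45.3 ± 23.0 CPM (SD, n = 3). The log2 fold change was 3.67 with a standard error of 0.79, and 4.95 without blank replicate 1. It was 3.34 without blank replicate 2 and 3.25 without blank replicate 3.

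ENSOCUG00000004155, which is also listed under oxidation-reduction process, was at 7.91, 1.57 and 3.35 CPM in blank and at 31.6, 17.4 and 27.4 CPM in hydrogel. Blank replicate 2 was the lowest here, where blank replicate 3 was the lowest in the other 3 genes of the set. The means were 4.28 ± 3.27 and 25.5 ± 7.25 CPM (SD, n = 3). The log2 fold change was 2.46 with a standard error of 0.67, and 3.34 without blank replicate 1. It was 2.03 without blank replicate 2 and 2.31 without blank replicate 3.

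Across all 6 libraries, edgeR's quasi-likelihood test with Benjamini-Hochberg adjustment over 13598 genes called 3 of the 8 genes higher in hydrogel, where 4.49% of all tested genes were called higher. The 3 were ENSOCUG00000008236, ENSOCUG00000012197 and ENSOCUG00000001497, and the other 5 did not pass. DESeq2 called all 8, beside 9.23% of the genes it tested, and limma-voom called 3, beside 3.05%. The 3 of limma-voom were not the same: they held ENSOCUG00000016831 in place of ENSOCUG00000001497. The authors' comparison also used DESeq2, so the DESeq2 count was largely fixed by how the genes were chosen. In edgeR, 3 were called with DESeq2 size factors (4.48%), upper-quartile factors (4.15%) or the stricter filter (4.48%), and 4 with library totals only (4.69%) or no filter (3.97%). The genes were chosen from a comparison that the authors made on these libraries, so none of these counts is evidence about the pathway. Leaving out blank replicate 2 gave 1 of the 8 (2.73% of all genes called higher), leaving out blank replicate 3 gave 2 (3.04%), and leaving out hydrogel replicate 1 gave 2 (2.81%). None of the 8 was called when hydrogel replicate 2 (0.036%) or hydrogel replicate 3 (0.0501%) was left out, and 4 were called when blank replicate 1 was (4.31%). ENSOCUG00000008236 was not among those called without blank replicate 1 or without blank replicate 2.

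**Figure D2:**
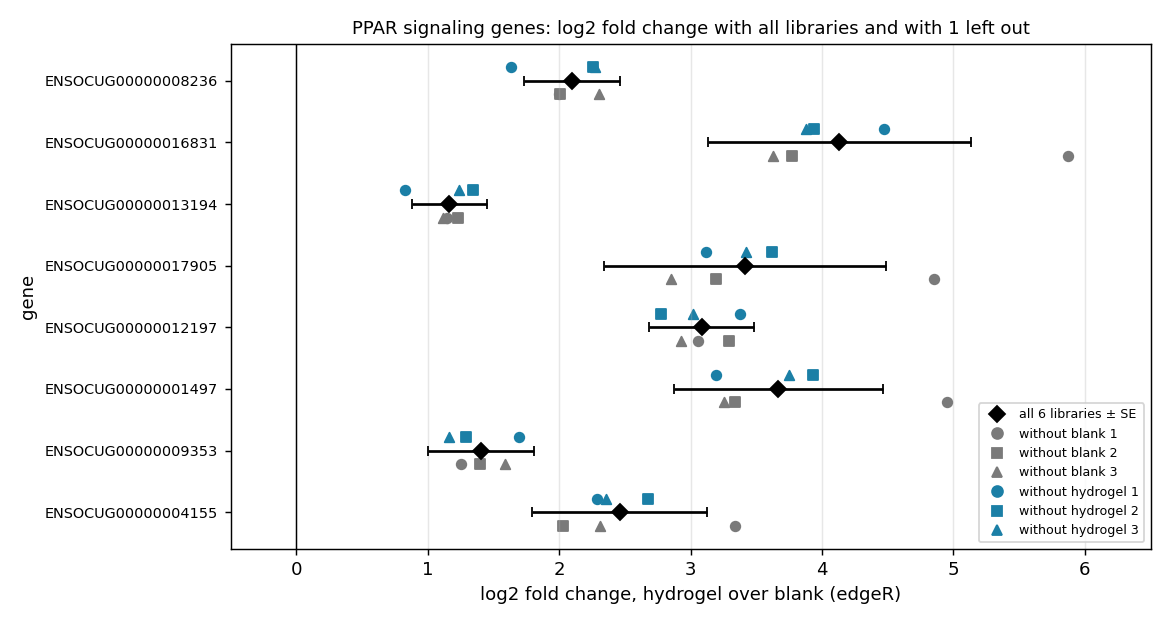
Log2 fold change of hydrogel over blank for the 8 PPAR signaling genes from edgeR, with black diamonds and bars for all 6 libraries and the standard error, and coloured points for the fits without 1 library (colour gives the group and shape the replicate left out). All points lie above 0, and leaving out blank replicate 1 moves ENSOCUG00000016831 from 4.13 to 5.87. Leaving out blank replicate 3 moves the same gene to 3.63.

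The sum of the 8 genes hid the unevenness of the blank libraries. Summed CPM were 388, 407 and 447 in the blank libraries and 2837, 1952 and 1826 in the hydrogel libraries, or 414 ± 30.3 and 2205 ± 551 CPM on average (SD, n = 3). Without ENSOCUG00000008236 the sums were 127, 83.9 and 54.5 CPM in blank and 584, 840 and 856 CPM in hydrogel. Blank replicate 1 was thus the lowest of its group in the first sum and the highest in the second. Hydrogel replicate 1 was the highest of its group in the first and the lowest in the second.

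The near-equal geometric means of the hydrogel libraries came from genes that differed in opposite ways. Hydrogel replicate 1 was the highest of its group in 5 genes (ENSOCUG00000008236, ENSOCUG00000013194, ENSOCUG00000017905, ENSOCUG00000001497 and ENSOCUG00000004155) and the lowest in the other 3 (ENSOCUG00000016831, ENSOCUG00000012197 and ENSOCUG00000009353). It was never in the middle. Over all tested genes it was the highest in 41.4% and the lowest in 39.4%. The SD of log2 CPM within hydrogel ranged from 0.44 to 0.82 over the 8 genes, with a median of 0.64, and all 8 lay above the median of 0.38 over all tested genes. Within blank the SD ranged from 0.27 to 2.79, with a median of 0.82 beside 0.50 over all tested genes, and 4 of the 8 lay above the latter.

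**Figure D3:**
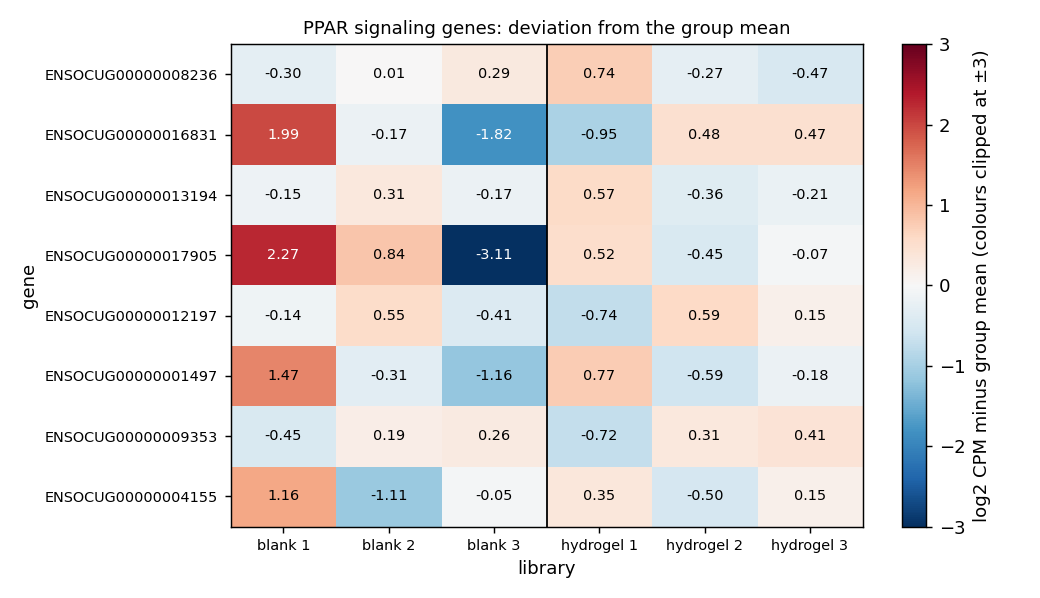
Deviation of log2 CPM from the mean of its group for the 8 PPAR signaling genes (lines) in the 6 libraries (columns), with the value printed in each cell and colours clipped at 3. Blank replicate 1 is above its group mean by 1.16 to 2.27 in 4 genes and below it in the other 4, and hydrogel replicate 1 is above in 5 and below in 3.

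Deviations from the group means were compared between genes as a description, over the same 6 libraries for each pair. Of 28 pairs of genes, 13 had a Pearson correlation above 0 and 15 one below 0, with a median of -0.07. The highest value, 0.86, was between ENSOCUG00000017905 and ENSOCUG00000001497, and the lowest, -0.82, was between ENSOCUG00000001497 and ENSOCUG00000009353. Within the steadier set, ENSOCUG00000008236 and ENSOCUG00000013194 were at 0.76, and ENSOCUG00000012197 and ENSOCUG00000009353 at 0.67. All other pairs of the steadier set were below 0, from -0.42 to -0.71. Over all 28 pairs, opposite deviations were thus about as many as like ones. Within the set that was uneven among the blank libraries, every pair was above 0, from 0.33 to 0.86. The sets were formed on the spread of the blank libraries after the values were seen, so nothing is read from this.

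Of the other terms of the same cluster in the authors' deposited table, only glutathione metabolism, mucin type O-glycan biosynthesis and oxidative phosphorylation were taken. Their geometric mean levels are set side by side without a test because their genes were chosen from the same comparison. The 8 genes of glutathione metabolism were at 28.3, 38.2 and 21.0 CPM in the blank replicates and at 103, 161 and 119 CPM in the hydrogel replicates, so their highest blank library was replicate 2. The 8 genes of mucin type O-glycan biosynthesis were at 8.75, 7.60 and 1.42 CPM in blank and 43.0, 53.0 and 47.3 CPM in hydrogel. There, as in PPAR signaling, blank replicate 1 was the highest and blank replicate 3 the lowest of its group. The 12 genes of oxidative phosphorylation were at 324, 246 and 247 CPM in blank and 999.5, 1085 and 1219 CPM in hydrogel, with blank replicate 1 the highest and blank replicate 2 the lowest. The blank range was 1.32-fold for oxidative phosphorylation, 1.82-fold for glutathione metabolism, 2.83-fold for PPAR signaling and 6.15-fold for mucin type O-glycan biosynthesis.

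The genes whose profile was most like that of the 8 were sought among 11618 other genes with a mean log2 CPM of at least 1. Likeness was the Pearson correlation, over the 6 libraries, with the mean standardised log2 CPM of the 8 genes, and it is dominated by the difference between the groups. ENSOCUG00000004627 was nearest, at a correlation of 0.999, with 3.38, 2.80 and 2.02 CPM in blank and 20.9, 19.4 and 19.1 CPM in hydrogel, and none of the authors' deposited terms lists it. ENSOCUG00000029112 followed at 0.997, with 940, 688 and 568 CPM in blank and 6241, 6102 and 6918 CPM in hydrogel. It is listed under oxidation-reduction process, oxidative phosphorylation and Parkinson's disease. A correlation above 0.95 was reached by 348 of the 11618 genes.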

How the data were processed

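RNA-seq of 3 blank and 3 hydrogel libraries of rabbit trachea was used, grouped and numbered by title. The deposited values are whole-number read counts per gene. The tools, per the submitters' processing notes, include Trimmomatic 0.39, HISAT2 2.2.1, featureCounts 2.0.2 and DESeq2 1.34.0, and the builds named are GRCh38 and mm10. No source used here gives the rabbit build, annotation or strand setting, so overlapping genes and near-identical copies may share reads. Per the file headers, the authors' deposited table of the comparison holds log2 fold changes and p-values, and their enrichment tables hold p-values and the listed genes of each term.

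Counts were tested with edgeR 4.0.16 in R 4.3.3 (quasi-likelihood, TMM, filterByExpr, group as the term, Benjamini-Hochberg over 13598 genes, threshold 0.05). Standard errors were derived from F statistics and are approximate. The common biological coefficient of variation was 58.5%. CPM used library totals; log2 CPM and geometric means used a prior count of 2. Alternatives used DESeq2 1.42.0, limma 3.58.1, other scalings and filters, a replicate block, and leaving out each library. Figures used matplotlib 3.10.9.

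The reference gene table (assembly mOryCun1.1) held 0 of the 16815 identifiers, so a list of PPAR pathway genes and lists of cell type markers by symbol could not be used. All 8 genes were named, and of other genes the 2 most alike in profile. The genes, sets and tests were chosen with earlier results of these data known. Of the 67 sheets per workbook 3 were used. Another 408 numeric columns per workbook, not matched to a sample here, were left out. That number does not cover all of the unused sheets. The design text calls the replicates biological, and the labels do not tie libraries to named animals. The p-values set the group difference against the spread among libraries of a group, which edgeR estimates partly from other genes.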

Additional observations from a re-analysis of the deposited data

How the results depend on the processing

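The median log2 fold change of the 8 PPAR signaling genes stayed between 2.58 and 3.20 over the alternatives. The geometric mean level was 12.5 to 13.1 CPM in blank and 91.5 to 92.8 CPM in hydrogel under other scalings and prior counts; leaving out 1 library gave 9.39 to 15.6 CPM in blank and 90.7 to 96.1 CPM in hydrogel. The number of the 8 genes called higher was 8 with DESeq2 (beside 1248 of all genes higher, and 2062 called in either direction), 3 with limma-voom (415 and 609) and 3 or 4 with the other scalings and filters (564 to 650 and 862 to 911), against 3 (610 and 865) with edgeR and TMM. The authors' comparison, from which the genes were taken, also used DESeq2. Leaving out 1 library gave 0 to 4 of the 8 and 7 to 741 of all genes in either direction. The lowest came without hydrogel replicate 2 (0 of the 8) and without hydrogel replicate 3 (0 of the 8); all genes called were 532 without blank replicate 3 and 501 without hydrogel replicate 1. With the replicate block, 0 of the 8 were called, beside 10 of all genes higher (0.0735%) and 15 in either direction. Deviations of same-numbered libraries from their group means did not agree (correlations over genes -0.20, 0.01 and -0.10), and the labels do not say that the numbers pair animals. The cause of these differences was not tested. Of 112 single-gene fold changes under 14 alternatives, 87 kept their side of the threshold, 15 lost it, 10 gained it and 0 changed sign. The figures list the 8 genes by mean CPM, highest first. That listing does not rank their levels against each other, because gene lengths were not at hand. Depth was most limiting for ENSOCUG00000017905 in blank replicate 3, at 5 counts.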
